A study of Homo sapiens with 2 samples.

Results

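The early growth response (EGR) family genes EGR1, EGR3 and EGR4, the related zinc-finger gene WT1 and the corepressor genes NAB1 and NAB2 were examined across both samples of the study. All probe sets that the platform annotation gives to exactly 1 of these 6 symbols were taken, each on its own, which made 22 of the 44988 probe sets with a single gene symbol and 6 of 18132 genes. One sample was NCI-H1299 (labelled H1299), a long-established line of p53-null human non-small cell lung cancer cells, after transient lipofection with the empty pcDNA3.1 plasmid. The other was the same line given a pcDNA plasmid that carries EGR1. Per the series description the cells were harvested after 48 hours. Both samples therefore share the line and the reagent, and EGR1 is what the labels say differs. Both plasmids are named as pcDNA, and whether their backbones are identical was not established here. The EGR1 in the plasmid is expressed transiently, and the fraction of cells that took it up is not given in the sources used here. Expression was read on 1 Affymetrix array per sample, so the differences below describe these 2 arrays, with no replicate error and no p-value.

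EGR proteins are transcription factors of the immediate-early class, made within a short time after growth factors, stress or synaptic activity reach a cell. Their C2H2 zinc fingers bind a GC-rich element, and WT1, the Wilms tumour protein, has related fingers and can bind similar DNA. NAB1 and NAB2 do not bind DNA themselves. They attach to a repression domain of EGR1 and dampen it, and NAB2 is itself a target of EGR1, which makes a negative feedback loop. The EGR1 gene is in turn switched on by serum response factor (SRF) and its ETS-family partners at CArG boxes.

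Upstream sequences of EGR1, NAB1 and NAB2 are shown because they hold matches to CArG boxes (EGR1) or to an EGR element (NAB1 and NAB2), and because EGR1 and NAB2 carry the largest differences among the member probe sets above the signal floor defined below. Each line gives the 250 bases before a transcript start, 5′ to 3′ on the gene's strand, from RefSeq (GRCh38.p14). Capitals mark CArG boxes in EGR1 and the EGR element GCGGGGGCG, on either strand, in NAB1 and NAB2. All of these genes lie on the plus strand, EGR1 at chr5:138465229-138465478, NAB1 at chr2:190648645-190648894 and NAB2 at chr12:57088864-57089113.
EGR1: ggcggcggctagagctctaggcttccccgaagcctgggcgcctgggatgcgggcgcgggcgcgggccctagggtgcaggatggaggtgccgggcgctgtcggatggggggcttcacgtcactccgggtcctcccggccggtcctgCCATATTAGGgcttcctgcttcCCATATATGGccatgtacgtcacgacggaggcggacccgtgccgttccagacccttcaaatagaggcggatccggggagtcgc
NAB1: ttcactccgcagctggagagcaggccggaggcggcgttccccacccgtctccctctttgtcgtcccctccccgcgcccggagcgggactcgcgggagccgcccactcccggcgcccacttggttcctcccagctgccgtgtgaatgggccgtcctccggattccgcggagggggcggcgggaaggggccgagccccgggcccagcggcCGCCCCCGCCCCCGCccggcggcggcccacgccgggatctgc
NAB2: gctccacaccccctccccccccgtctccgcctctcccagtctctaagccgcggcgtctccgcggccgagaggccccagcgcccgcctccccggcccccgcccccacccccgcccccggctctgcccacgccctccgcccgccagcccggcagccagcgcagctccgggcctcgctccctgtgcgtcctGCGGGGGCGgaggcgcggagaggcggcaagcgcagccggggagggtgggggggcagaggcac

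EGR1 had 2 CArG boxes, at 105 to 96 and 83 to 74 bases before its start, and 1.16% of 35116 upstream windows of this length held at least one. None of the searched GC-rich elements, namely GCGTGGGCG, GCGGGGGCG and the WT1-type GCGTGGGAG on both strands, was in that window. NAB2 held 1 GCGGGGGCG, 62 to 54 bases before its start. The window shown for NAB1, before the first of its 3 listed starts, held 2 overlapping copies on the reverse strand, between 42 and 28 bases before the start. GCGGGGGCG was in 4.72% of windows, GCGTGGGCG in 0.72% and GCGTGGGAG in 0.592%. NAB1 also had a GCGTGGGCG just inside its first transcript, 175 bases before a second listed start, at chr2:190648898-190648926 with its flanks:
NAB1 element: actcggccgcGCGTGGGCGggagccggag
The upstream windows of EGR4 (1 window) and WT1 (4 windows) held none of the letters searched. EGR3 was left out of this description of windows, so whether it holds any of these elements is not given here. A match describes these letters only, and the arrays do not measure binding.

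EGR1 itself was read by 6 probe sets, and they fell into a pair that was far higher in the EGR1 array and 4 that were slightly lower. Of the pair, 11717861_a_at read 7.70 with empty vector and 11.43 with EGR1 on the log2 scale, a 13.3-fold difference. The other, 11751643_x_at, of a type that can bind several transcripts, read 7.17 and 9.92, a 6.76-fold difference. Their empty-vector levels lay 0.53 apart, and the EGR1-array level of each was well above both. Over all 44988 probe sets with a single symbol, 107 (0.238%) were at or beyond 2-fold higher, and 1 had a larger difference than 11717861_a_at and 9 a larger one than 11751643_x_at. Higher EGR1 signal in these 2 probe sets matches the label of the transfected sample. A probe set outside the insert would not read the plasmid's EGR1, and which ones lie within the insert is not known here. In a bulk sample, more cells expressing a gene and more RNA per cell cannot be told apart.

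The remaining EGR1 probe sets were bright in both arrays, and 11754334_s_at and 11717862_x_at are also of a type that can bind several transcripts. The probe set 11717860_a_at read 10.51 with empty vector and 10.12 with EGR1, and 11754334_s_at read 10.46 and 10.15. The probe set 11752940_a_at read 10.33 and 10.06, and 11717862_x_at read 9.70 and 9.49. Each was thus lower in the EGR1 array, and their log2 differences ran from -0.39 to -0.20 with a mean of -0.29 and an SD of 0.08 between these 4 probe sets. Their empty-vector levels (9.70 to 10.51) lay above those of the other pair (7.17 to 7.70), although levels of different probe sets are not on a shared scale. Among 1487 probe sets whose mean level was within 0.5 of that of 11717860_a_at, 0.807% were lower still, and the corresponding shares were 1.86% for 11754334_s_at, 2.99% for 11752940_a_at and 10.7% for 11717862_x_at.

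The transcript record that the annotation names for each probe set did not separate the groups. The RefSeq mRNA record gave 11717860_a_at (-0.39), and an expressed sequence tag (EST, a short single-pass cDNA read) gave 11754334_s_at (-0.30). Of 2 full-length cDNA records of the FLJ collection, one gave 11751643_x_at (2.76) and the other 11752940_a_at (-0.27). A full-length cDNA record of the Mammalian Gene Collection (MGC) gave both 11717861_a_at (3.73) and 11717862_x_at (-0.20), so probe sets named for 1 and the same record lay 3.94 log2 units apart. Among 2504 records that each stood for 2 or more probe sets above a floor on signal, this was the widest gap; the median gap was 0.08, and the next widest was 1.26, in BAIAP2. The floor is the 40th percentile of mean level over all probe sets, 5.22 on the log2 scale. The place of each probe set within its transcript was not established here.

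**Figure D1:**
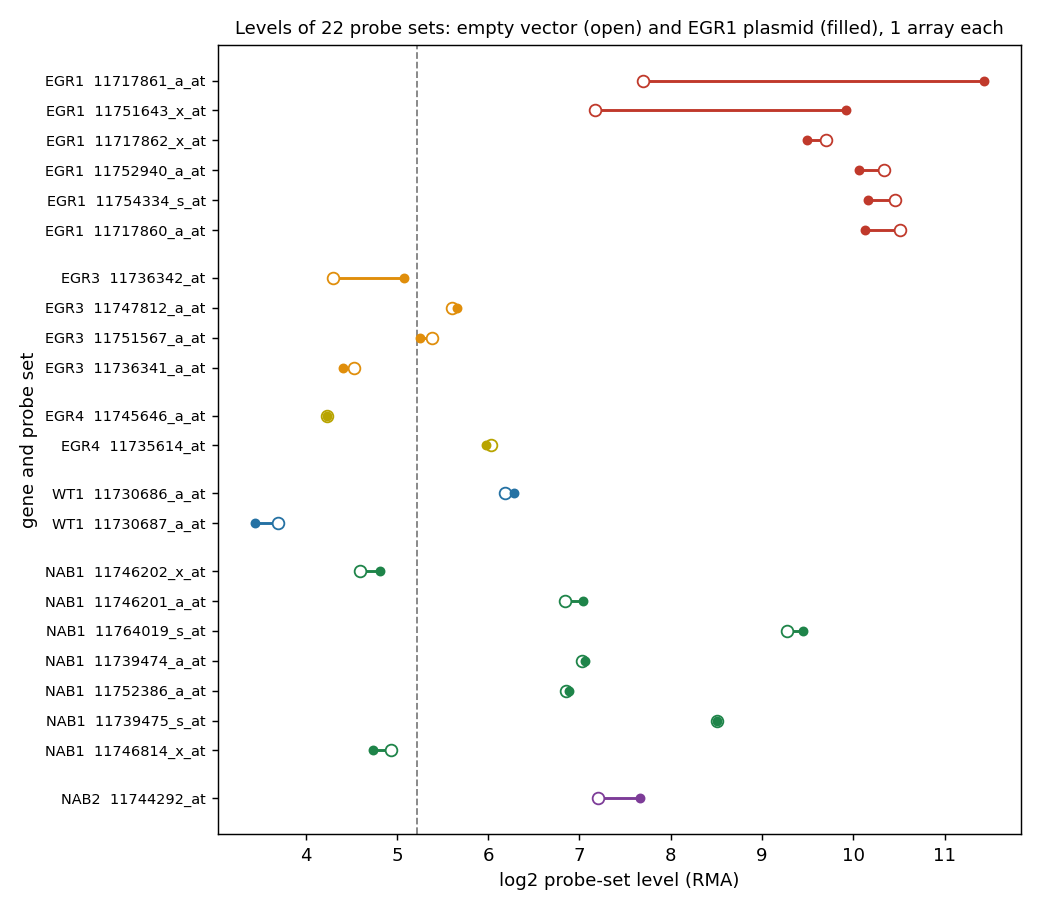
Log2 level of each of the 22 probe sets (rows, grouped by gene) in the empty-vector array (open circles) and the EGR1 array (filled circles), with the dashed line at the floor of 5.22. For EGR1, 11717861_a_at and 11751643_x_at run far to the right while the other 4 run slightly to the left; the NAB2 probe set moves from 7.20 to 7.66, and most other pairs nearly coincide.

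Probe sets of EGR1 disagreed more than those of any other gene with 2 or more above the floor (7113 genes). The lowest and highest EGR1 differences lay 4.12 apart, where the median range over these genes was 0.16. The next widest were GDF15 (3.17), NPTX1 (2.73), IL11 (1.91) and FGFR3 (1.58). In each of those genes the lowest difference was above 0. EGR1 was the 1 gene with a probe set at or beyond 2-fold higher and another at -0.20 or lower, a criterion chosen after its values were seen. Among 439 genes with 6 or more of them the median range was 0.31 and the widest after EGR1 was 1.46. The SD of the EGR1 differences was 1.85 over 6 probe sets, against a pooled within-gene SD of 0.15 over these genes. NAB1 (range 0.19 over 5 probe sets past the floor) and EGR3 (0.18 over 2) lay near the median of all genes.

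**Figure D2:**
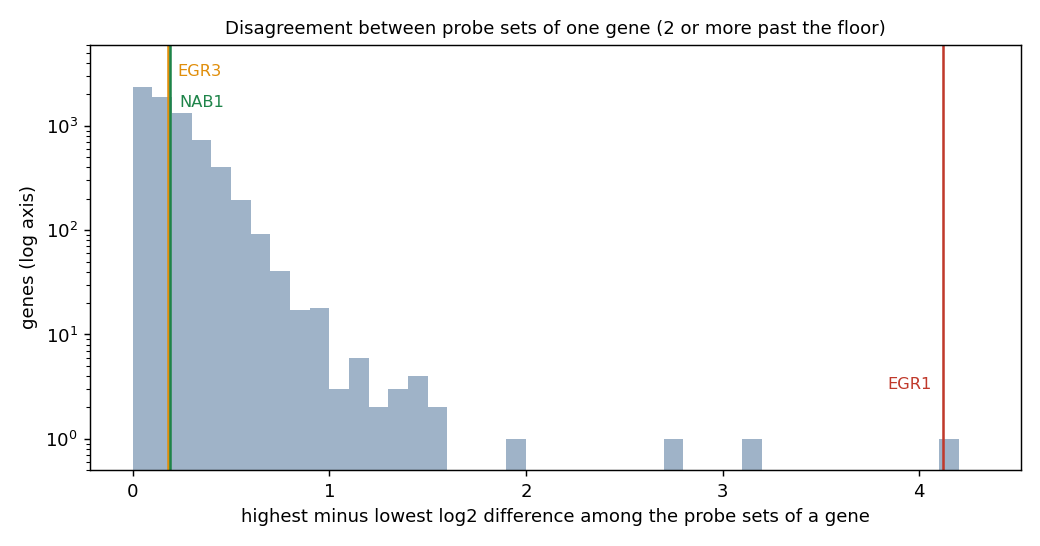
Number of genes (log axis) by the range of log2 differences among their probe sets, for the 7113 genes read by several probe sets above the floor, with vertical lines at the member genes. EGR1 stands alone at 4.12, and EGR3 and NAB1 lie at 0.18 and 0.19 in the main body.

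The 16 probe sets of the 5 other genes differed little. Their log2 differences ran from -0.25 to 0.78 with a median of 0.03, against a median of 0 over all probe sets with a single symbol. Of them, 9 were above 0, 5 below and 2 equal in both arrays, where 45.5% of all probe sets were above 0 and 49.1% below. One of the 16, of EGR3, was at or beyond 1.5-fold, against 1.53% of all probe sets in either direction. None reached 2-fold, against 0.238% of all probe sets at least that much higher and 0.0445% that much lower. The floor was passed by 10 of the 16 and by all 6 EGR1 probe sets.

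EGR3, a paralog of EGR1 that is induced by many of the same stimuli, was dim. The probe set 11747812_a_at read 5.61 with empty vector and 5.66 with EGR1, and 11751567_a_at read 5.38 and 5.26. Under the floor, 11736341_a_at read 4.53 and 4.41, while 11736342_at, named for an EST, read 4.30 and 5.08. The last was the exception among the 4, at 1.72-fold higher (log2 difference 0.78). At its level 0.32% of 7188 probe sets had a larger difference. Both of its own readings lay under the floor, and of the other EGR3 probe sets 1 was above 0, by 0.05. The differences of 11736341_a_at and 11751567_a_at were the same to 5 decimals (-0.13). Both are in the counts given here, although readings that match this closely may not be independent.

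EGR4, the family member known chiefly from neurons and germ cells, showed no difference of size. Its RefSeq-based probe set 11735614_at read 6.03 with empty vector and 5.97 with EGR1, a log2 difference of -0.06. Its other probe set, 11745646_a_at, read 4.23 in both arrays, identical to the last digit and under the floor. Identical values are not rare in this table, where 5.33% of probe sets with a single symbol had them.

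WT1, a regulator of kidney and gonad development that is also found in some tumours, was read at low levels. The RefSeq-based probe set 11730686_a_at read 6.18 with empty vector and 6.29 with EGR1 (log2 difference 0.11). The probe set 11730687_a_at read 3.69 and 3.44 (log2 difference -0.25), well under the floor. The signs thus differed between the probe sets of WT1, and 11.2% of probe sets of like level were lower still than 11730687_a_at. Of neighbouring transcripts outside the 6 symbols, the antisense gene WT1-AS read 4.59 and 5.15 in its own probe set 11764215_at. The probe set 11745014_at, annotated to both WT1 and WT1-AS, read 5.48 and 5.81.

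NAB2, the EGR1-induced corepressor, had the largest difference of the 5 genes among probe sets past the floor. Its 1 probe set, 11744292_at, read 7.20 with empty vector and 7.66 with EGR1, a 1.38-fold difference (log2 difference 0.46). The pooled within-gene SD between probe sets was 0.15, a yardstick that leaves out error between cultures and arrays. Of 5405 probe sets of like level 1.59% had a larger difference. With a single probe set, NAB2 had no second reading.

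NAB1, the corepressor that is usually present without induction, was read by 7 probe sets, of which 5 passed the floor. The EST-based 11764019_s_at read 9.27 with empty vector and 9.45 with EGR1, and 11739475_s_at read 8.51 in both, to the last digit. The probe set 11739474_a_at read 7.03 and 7.06, 11752386_a_at read 6.86 and 6.89, and 11746201_a_at read 6.85 and 7.04. Among those past the floor, 4 were thus slightly higher in the EGR1 array, 1 was equal and none was lower. Of the 4, 11739474_a_at and 11752386_a_at again had the same difference to 5 decimals (0.03). Under the floor, 11746202_x_at differed by 0.23 and 11746814_x_at by -0.20, in opposite directions. The median over all 7 was 0.03. The highest differences past the floor were 0.19 for 11746201_a_at and 0.18 for 11764019_s_at, at which 12.6% and 6.59% of probe sets of like level were higher.

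In order of the highest log2 difference past the floor, NAB2 (0.46) led the 5 genes, and NAB1, WT1, EGR3 and EGR4 followed. All differences of these followers past the floor lay between -0.13 and 0.19. Ranking by the highest favours genes with more probe sets, and some NAB1 probe sets lay below the WT1 value. NAB2 lay 0.27 above the highest NAB1 probe set, a gap between 2 single readings whose error between cultures and arrays is not known. The WT1 value lay within the NAB1 range (0 to 0.19) and the EGR4 value within the EGR3 range (-0.13 to 0.05), and these ranges overlapped.

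**Figure D3:**
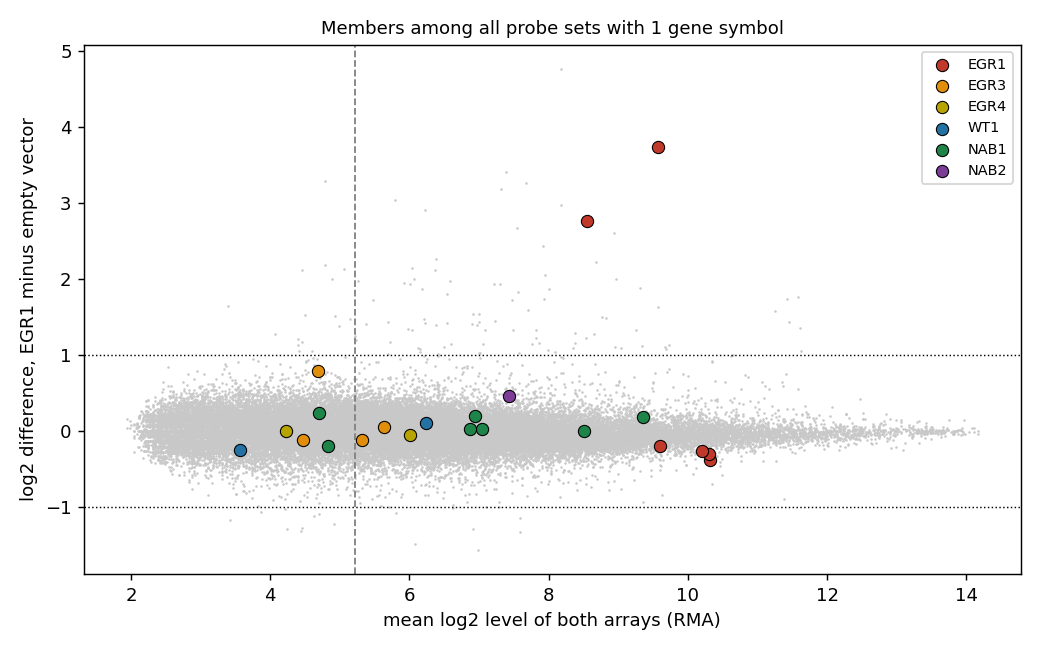
Log2 difference (EGR1 minus empty vector) against the mean log2 level of both arrays for all 44988 probe sets with a single symbol (grey) and the 22 member probe sets (coloured), with dotted lines at 2-fold and a dashed line at the floor. EGR1 appears at 3.73 and 2.76 and again, at higher levels, at -0.39 to -0.20. The NAB2 point (0.46) lies high in the grey cloud, with 1.59% of probe sets of like level above it. EGR3, EGR4, WT1 and NAB1 points lie within the cloud, apart from a dim EGR3 point at 0.78.

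The genes whose difference was nearest to that of 11751643_x_at (2.76), by brightest probe set past the floor, were CDKN1C, which encodes the CDK inhibitor p57 (2.67), the neuronal pentraxin gene NPTX1 (2.91) and the stress-induced cytokine gene GDF15 (2.60). None lay near 11717861_a_at (3.73). The closest were NPTX1, ARC (4.77) and CDKN1C, with gaps of 0.83, 1.03 and 1.06. NPTX1 read 4.77 with empty vector, under the floor, and 7.68 with EGR1, so it passed the floor through the EGR1 array and its difference rests on a dim value. Over probe sets past the floor, differences ran from 0.18 to 2.91 for NPTX1 and from 0.09 to 3.26 for GDF15. The nearness of these genes thus depended on the probe set taken. With 2 arrays this likeness is a gap between single differences and not a pattern over samples.

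Genes around the EGR family were then described through lists. Known EGR1 targets (50 listed, 45 measured) were above 0 in 30 and below in 14, with a median of 0.14 against 0 over all 18132 genes, of which 47.6% were above 0. Past the floor, 3 of 37 were at or beyond 2-fold higher, where 0.348% of all genes were, and 5 at or beyond 1.5-fold higher, where 0.941% were. None was at or beyond 1.5-fold lower, where 0.229% of all genes were. Those at 2-fold by brightest probe set were ARC, an activity-regulated gene of neurons, KRT18, a keratin of simple epithelia, and the stress-response gene GADD45B. The 4 probe sets of GADD45B ran from 0.16 to 1.12. Other probe sets also reached 2-fold in VEGFA (0.13 to 1.33 over 10) and PDGFA (0 to 1.13 over 4). The brightest probe sets of these genes stood at 0.45 and 0.14, that of PDGFA under the floor. ATF3, a stress-induced transcription factor, was 1.71-fold higher and ABCA2, a transporter of the ABC family, 1.53-fold higher, each by its most different probe set; the 7 of ATF3 ran from 0 to 0.77 and the 2 of ABCA2 from 0.07 to 0.61. With the mean of all probe sets in place of the brightest, 2 of the 37 were at or beyond 2-fold (ARC and KRT18) and 3 at or beyond 1.5-fold (GADD45B too, at 0.77). ARC, KRT18 and GADD45B had been seen to differ before this list was drawn up, and NAB2 is in it too.

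The factors and kinases that induce EGR genes differed by small amounts. Of 17 listed, 14 were measured and 13 passed the floor, 9 of them above 0 (44.6% of all genes past the floor were) and 4 below, with none at 1.5-fold and a median of 0.04 over the 14. At the shares of all genes given above, none of 13 at 1.5-fold is near the background, and the lists were not compared with each other. CREB1, which binds cAMP response elements, differed most by brightest probe set, at -0.46. That was the lowest of its 7 probe sets, which ran up to -0.08. By the mean of all probe sets ELK3 (-0.34) differed more than CREB1 (-0.27). By brightest probe set the ETS-family SRF partner ELK3 followed at -0.29. The kinase genes MAPK3 (ERK1) and RPS6KA3 (RSK2) stood at 0.26 and 0.21, and RPS6KA1 (RSK1) at -0.13. The probe sets of RPS6KA1 ran up to 0.04. SRF itself read 8.38 with empty vector and 8.44 with EGR1.

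Subunits of NuRD, the chromatin-remodelling and deacetylase complex that NAB proteins recruit, were all measured and past the floor (13 of 13). Of these 5 were above 0 and 8 below, with a median of -0.06 and none at 1.5-fold, near the background of 44.6% above 0 and of 0.941% and 0.229% at 1.5-fold higher and lower. GATAD2B was at -0.28, the remodelling ATPase gene CHD4 at 0.23, MBD3 at -0.22, the deacetylase gene HDAC2 at -0.16 and MTA1 at -0.12. The CHD4 probe sets ran from -0.29 to 0.23, so the sign for CHD4 depended on the probe set, as it did for MBD3, HDAC2 and MTA1.

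Partners and known targets of WT1 were measured in 14 of 15 cases, and 10 passed the floor, 6 of these above 0 and 4 below. The median was 0.12 over the 14 and 0.09 past the floor, with none at 1.5-fold, against the same background shares (44.6%, 0.941% and 0.229%). WTIP, which encodes a WT1-interacting protein, was highest at 0.41. The ligand gene WNT4 was at 0.25, the signalling inhibitor gene SPRY1 at 0.18, the coregulator gene CITED2 at -0.15 and the podocyte sialomucin gene PODXL at 0.15. For SPRY1 and PODXL other probe sets lay below 0.

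**Figure D4:**
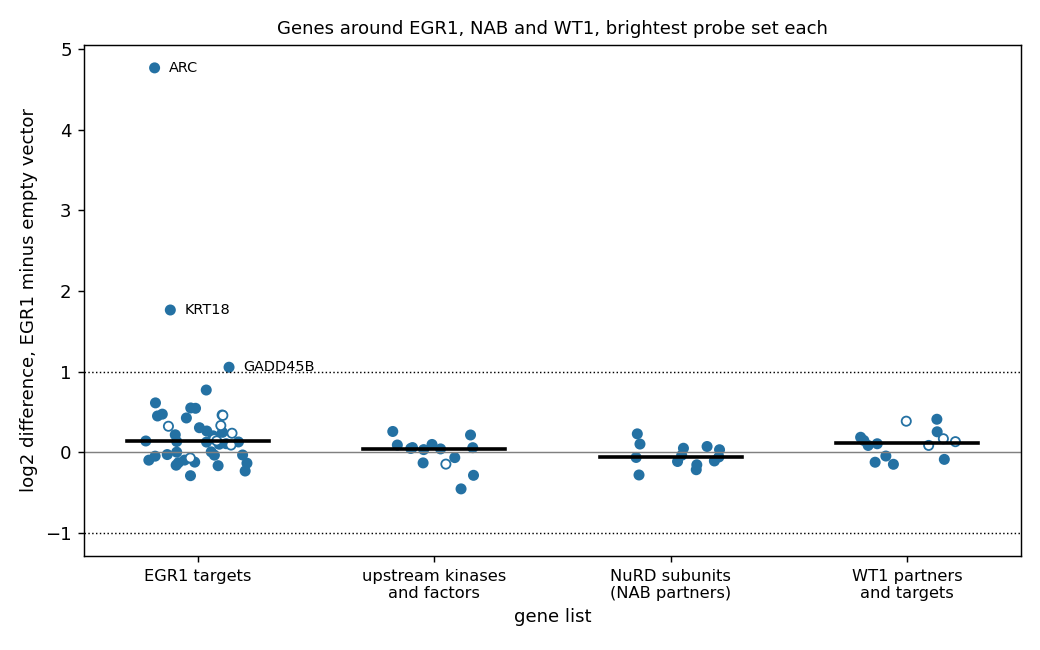
Log2 difference (EGR1 minus empty vector) of each measured gene by its brightest probe set, in 4 gene lists (filled points past the floor, open points under it), with the list median as a bar and dotted lines at 2-fold. ARC, KRT18 and GADD45B lie at or above the upper dotted line among EGR1 targets, and the other 3 lists stay within 2-fold.

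The line markers fixed for H1299 gave mixed readings. The mesenchymal filament gene VIM read 13.73 and 13.66. The epithelial keratin genes KRT8 (7.97 and 9.97) and KRT18 (10.70 and 12.47) were higher in the EGR1 array, KRT8 by 3.99-fold and KRT18 by 3.39-fold. The keratin gene KRT19 (5.36 and 5.61, log2 difference 0.24) only just passed the floor. Its level and difference were like those of CD3E (0.30) and PECAM1 (0.20), described below. The epithelial adhesion gene EPCAM read 4.14 and 3.75, under the floor. The leukocyte gene PTPRC and the fibroblast collagen gene COL3A1 were under the floor in both arrays (2.76 to 2.95). CD3E and PECAM1, also markers of cells that should be absent, narrowly passed it by mean level (5.18 to 5.73). Passing the floor therefore does not by itself show that a gene is expressed, which also limits the dim EGR3, EGR4 and WT1 readings.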

How the data were processed

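Total RNA from 2 samples (1 per group) was extracted with Trizol, and biotin-labelled cRNA from 2 µg was hybridised, per the labels' protocols. The authors deposited log2 levels per probe set from RMA (per the submitters' processing notes), which corrects background, normalizes arrays and summarises probes. Its software and settings were not found in these sources. RMA gives no detection call or error, and the number of arrays limits the precision.

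Here the log2 difference (EGR1 minus empty vector) was taken per probe set, with no further normalization, and tested on simulated data (Python 3.11.15, pandas 2.3.3, statsmodels 0.14.6 for lowess). Control probe sets (102) and those with no or several symbols were left out. Symbols were updated by Entrez ID through RefSeq. Suffix _s_at or _x_at marks probe sets that can bind several transcripts. A gene in a list was its brightest probe set. Named were all probe sets of the 6 genes; in each list the 5 genes with the largest absolute difference past the floor and any at 2-fold; and the 3 genes nearest each EGR1 probe set at 2-fold. Members and lists were chosen with earlier results of these data known. Alternatives were renewed quantile normalization, a lowess correction (span 0.3), use or not of the floor, and other probe-set rules. No replicate exists to leave out.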

Additional observations from a re-analysis of the deposited data

How the results depend on the processing

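With 1 array per group no replicate could be left out, and every difference rests on these 2 arrays. No paired analysis was possible because the groups hold 1 sample each. The count of EGR1 probe sets at or beyond 2-fold stayed at 2 of 6 under renewed quantile normalization and the lowess correction. All 6 pass the floor, so using the floor could not change this count. Over the 22 probe sets, quantile normalization moved the log2 difference by -0.03 to 0.05 and the lowess correction by -0.03 to 0.05. These shifts were less than the pooled SD of 0.15, and no difference other than 0 changed sign. The probe sets equal in both arrays moved off 0 under either setting, to -0.03 for 11745646_a_at of EGR4 and to 0.05 for 11739475_s_at of NAB1. After lowess, 11717860_a_at was -0.34 and 11717862_x_at -0.15. With probe sets past the floor only, the count of the 16 others at or beyond 1.5-fold went from 1 to 0, since that EGR3 probe set is dim. The SD between EGR1 probe sets was 1.85 with or without a floor, which could not change it either. It was 2.35 without _x_at and _s_at probe sets, when 3 remained. List medians over all their alternatives ran from 0.10 to 0.18 for EGR1 targets and from 0.04 to 0.12 for WT1 partners and targets. Those of the upstream list (-0.02 to 0.07) and the NuRD list (-0.06 to 0.002) had no settled sign.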

Other observations

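The EGR elements GCGTGGGCG or GCGGGGGCG were looked for, on both strands, in the 250 bases before every listed transcript start. Of 34 listed EGR1 targets with such a window, 10 held one (29.4%), against 6.5% of 27305 genes with a window. Past the floor the counts were 8.0 of 27.0 (29.6%) for the targets and 11.3% of 10312 genes. The list was not drawn up independently of these elements, and how each gene came to be known as a target was not checked. GC content of the target windows was not matched to that of other genes. These shares thus describe the list, and an excess of elements apart from its choice was not tested. The 10 were NAB2, GADD45B, ABCA2, SYN1, TNF, PDGFA, PTGES, TGFB1, F3 and THBS1, with TNF and PDGFA under the floor. Their log2 differences ran from -0.05 in THBS1 to 1.05 in GADD45B.

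Over the genes past the floor, the 1163 with an element had a median difference of 0.03 and 1.46% were at or beyond 1.5-fold higher. The 9149 without one had a median of -0.03 and 0.787% were at or beyond 1.5-fold higher. The windows also differed in base composition, with a median GC content of 71.6% with an element and 63.6% without, and the part of GC content in this difference was not tested.

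Differences shared to 5 decimals, as seen in EGR3 and NAB1, occurred in 436 of 11734 genes with 2 or more probe sets (3.72%), leaving out differences of exactly 0.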
